A study of Mus musculus with 14 samples.

Results

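The genes described here move ions and water across the epithelium of the airways and alveoli. They are the GABA-A receptor subunit gene Gabrp, the chloride channel gene Cftr, the epithelial sodium channel genes Scnn1a, Scnn1b and Scnn1g, the cotransporter gene Slc12a2, the sodium pump subunit gene Atp1b1 and the aquaporin genes Aqp4 and Aqp5. All probesets that the platform annotation assigns to 1 of these symbols alone were taken, which gave 18 probesets for 9 genes, of 22690 probesets and 12393 genes in the table. The genes were put together with results of the same comparison known, Gabrp among them, so their differences between groups are given as a description without a test. The 14 arrays hold total RNA from tumours, 7 arrays from mice deficient in HIF-2α and 7 from control mice, all on a mixed 129 SvJ/C57Bl6 background. HIF-2α, encoded by Epas1, is an oxygen-regulated transcription factor, and the labels call its loss both a deficiency and a knockdown. The labels do not name the organ, and give no age, no promoter and no part of Epas1 that was lost.

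The liquid that lines the lung is set by secretion of chloride and absorption of sodium, with water following. Chloride enters the cell from the basal side through the SLC12A2 cotransporter and leaves at the apical side through CFTR and other channels. Sodium enters apically through ENaC, the channel built from the products of Scnn1a, Scnn1b and Scnn1g, and is pumped out by the Na,K-ATPase. Aquaporins let water follow, AQP5 mainly at apical membranes of alveolar type I and gland cells and AQP4 at basolateral membranes of airway cells.

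Levels are log2 probeset values as deposited, processed by the authors with GCRMA, and a level under 4 lies in the range where GCRMA values pile up at background. Tested probesets are the 12701 that exceeded 4 in 7 or more of the 14 arrays. Array medians were 5.13 to 5.20 in deficient and 5.19 to 5.29 in control arrays. The mean 3' minus 5' signal of 4 control transcripts, a measure of RNA integrity, was 2.53 to 3.08 in deficient and 2.52 to 3.52 in control arrays on the log2 scale. The Epas1 probeset read 5.65 ± 0.51 in deficient and 5.84 ± 0.69 in control tumours (SD, n = 7 each, limma adjusted p = 0.807). Its place relative to the lost part of the gene is unknown here, so it checks nothing. Lung epithelial markers were bright in both groups, with Sftpc, the surfactant protein C gene of alveolar type II cells, at 13.89 ± 0.15 in deficient and 13.85 ± 0.06 in control tumours. The number in each array's description starts with digits that, for all arrays but deficient array 2, other arrays of the group share. There were 4 such leading numbers among deficient and 2 among control arrays. The submitters' design text counts 7 per group, which can be read as mice or as tumours, and nothing says whether arrays with one leading number come from separate animals, so p-values measure only the spread between these arrays.

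Of all 12701 probesets tested, 5 passed an adjusted p of 0.05 in limma (0.0394%, or 0.0386% of genes). An unadjusted p under 0.05 was reached by 14.7%, with 6.57% lower and 8.09% higher in deficient tumours, and 47.4% had a difference below 0. Of the 9 genes, 7 were tested through their brightest probeset, and 0 of these passed the adjusted threshold. At an unadjusted p under 0.05, 3 were lower and 1 was higher in deficient tumours, where 7.73% of all genes tested were lower and 7.45% higher at that level. Since the genes were chosen on this contrast, nothing is read from those shares. Of the 9 genes 7 had a lower mean in deficient tumours, as did 5 of the 7 tested and 49.6% of all genes tested. The median difference of the 7 tested genes was -0.41, against 0.02 over all probesets tested, counted by probeset and not by gene. Cftr and Aqp4 were not tested, because each lay above 4 in fewer than 7 arrays. In bulk tumours, fewer cells of a type and less RNA per cell cannot be told apart.

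**Figure D1:**
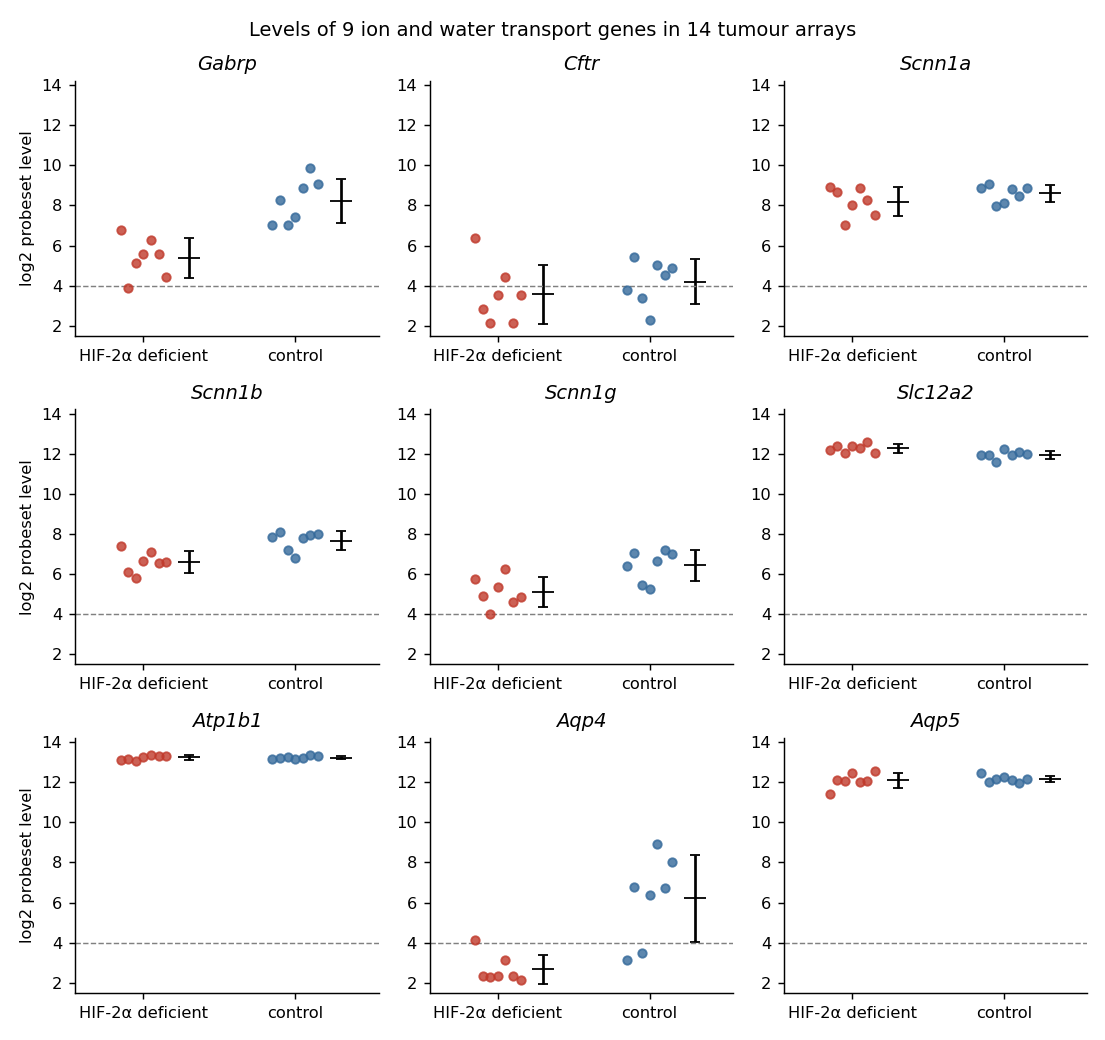
Log2 level of the brightest probeset of each gene in 7 HIF-2α deficient (red, left) and 7 control arrays (blue, right), with the mean and SD in black and a dashed line at 4, the background limit. Gabrp separates the groups, Aqp4 lies below the limit in 6 of 7 deficient arrays, and Slc12a2, Atp1b1 and Aqp5 are bright in all arrays.

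On the chloride side, Gabrp showed the widest gap among the tested genes. It encodes the pi subunit of GABA-A receptors, which are ligand-gated chloride channels, and is known for its expression in epithelia. Its brighter probeset, 1424647_at, read 3.90 at the lowest, 5.58 at the median and 6.79 at the highest in deficient arrays, against 7.01, 8.25 and 9.84 in control arrays. All 7 deficient arrays lay below all 7 controls, as did 0.129% of the genes tested. The means were 5.39 ± 1.00 in deficient and 8.22 ± 1.10 in control tumours (SD, n = 7 each). The difference of -2.83 (SE 0.51, 95% interval -3.93 to -1.73) corresponds to a level 7.12 times lower on this scale. The second probeset, 1451424_at, differed by -2.77 (SE 0.55). It ran from 3.45 to 6.50 in deficient and from 6.01 to 9.56 in control arrays, so there the groups overlapped, through deficient array 1. Over all tested probesets, 15 had a more negative difference than the brighter Gabrp probeset. Of the 12 other GABA-A subunit genes with a probeset of their own, 0 passed the filter on low values, and the highest value of any of them in any array was 2.19.

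Cftr, the apical chloride and bicarbonate channel gene, was near the background limit. Its brighter probeset, 1420579_s_at, ran from 2.16 to 6.37 with a median of 3.55 in deficient arrays and from 2.28 to 5.46 with a median of 4.53 in controls. It lay above 4 in 2 of 7 deficient and 4 of 7 control arrays, and the groups overlapped over nearly their whole range. The highest value of all 14 arrays was that of deficient array 1. The mean difference of -0.62 was smaller than the SD of either group (1.48 in deficient and 1.11 in control tumours), and it was -1.09 without deficient array 1, -0.94 without control array 4 and -0.05 without deficient arrays 3 and 6. The other Cftr probeset stayed between 2.16 and 2.21 in all arrays.

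Slc12a2 encodes the sodium-potassium-chloride cotransporter NKCC1 that loads epithelial cells with chloride. Of the tested genes it had the most positive difference. The brightest probeset, 1417622_at, read 12.01, 12.28 and 12.59 (lowest, median, highest) in deficient arrays and 11.56, 11.96 and 12.23 in controls. The groups overlapped, with 4 of 7 deficient arrays above the highest control and 0 of 7 below the control mean. The difference was 0.32 (SE 0.12), or 1.24-fold. The second probeset, 1448780_at, differed by 0.49 (SE 0.20). The third, 1417623_at, differed by 0.11 (SE 0.46), and in it deficient array 1 read 6.46 while the other deficient arrays read 9.31 to 10.14.

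Of the sodium channel genes, Scnn1a encodes the alpha subunit, which the channel needs to conduct. Its probeset 1425088_at read 7.04, 8.25 and 8.92 (lowest, median, highest) in deficient arrays, against 7.97, 8.84 and 9.06 in controls. Only 2 of 7 deficient arrays lay below the lowest control. The difference was -0.41 (SE 0.29), with a 95% interval of -1.03 to 0.21.

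Scnn1b, the beta subunit gene, read 5.83, 6.59 and 7.41 in deficient arrays and 6.80, 7.84 and 8.11 in control arrays (probeset 1418475_at, lowest, median, highest). The means were 6.61 ± 0.54 in deficient and 7.67 ± 0.48 in control tumours, a difference of -1.07 (SE 0.25) or 2.09-fold. The groups overlapped, with 5 of 7 deficient arrays below the lowest control and 7 of 7 below the control mean. Scnn1g, the gamma subunit gene, read 3.99, 4.93 and 6.23 in deficient arrays and 5.27, 6.66 and 7.20 in control arrays (probeset 1419079_at). Its means were 5.11 ± 0.75 in deficient and 6.43 ± 0.78 in control tumours, a difference of -1.32 (SE 0.38) or 2.50-fold. Of the deficient arrays 4 lay below the lowest control and 1 lay below the background limit. Whether the differences of the 3 subunit genes are unequal was not tested. Scnn1g and Scnn1b lie next to each other on chromosome 7 in the RefSeq annotation, with 0 annotated genes wholly between them.

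Atp1b1, which encodes the beta 1 subunit that carries the sodium pump to the membrane, was level between the groups. Its brightest probeset, 1423890_x_at, read 13.08 to 13.36 in deficient and 13.13 to 13.36 in control arrays, a difference of 0.00 with a 95% interval of -0.17 to 0.18. The other tested probesets differed by -0.03, 0.09 and -0.26. The widest of these, 1418453_a_at, had a 95% interval of -0.62 to 0.10. The remaining probeset, 1455949_at, read 2.15 in every array and carries no information.

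The aquaporin genes parted. Aqp4, the basolateral water channel gene, read 2.16, 2.32 and 4.13 (lowest, median, highest) in deficient arrays, against 3.15, 6.73 and 8.91 in controls, by its brighter probeset 1434449_at. It lay above 4 in 1 of 7 deficient and 5 of 7 control arrays. Deficient arrays 1 and 5, at 4.13 and 3.15, and control arrays 1 and 3, at 3.15 and 3.50, made the groups overlap. Means were 2.67 ± 0.73 in deficient and 6.21 ± 2.15 in control tumours. The difference of -3.54 is set by the floor on the deficient side and was not tested. The second probeset, 1425382_a_at, was at background in all 14 arrays, with 2.85 as its highest value. Aqp5, the water channel gene of alveolar type I and gland cells, read 11.39, 12.08 and 12.55 in deficient and 11.94, 12.16 and 12.44 in control arrays. Its difference was -0.06 (SE 0.16, 95% interval -0.39 to 0.27), and the lowest value was that of deficient array 1. With each array centred on its median, the difference was 0.02 for Aqp5 and 0.08 for Atp1b1. After quantile normalisation that of Atp1b1 was -0.02, so neither gene has a settled sign.

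**Figure D2:**
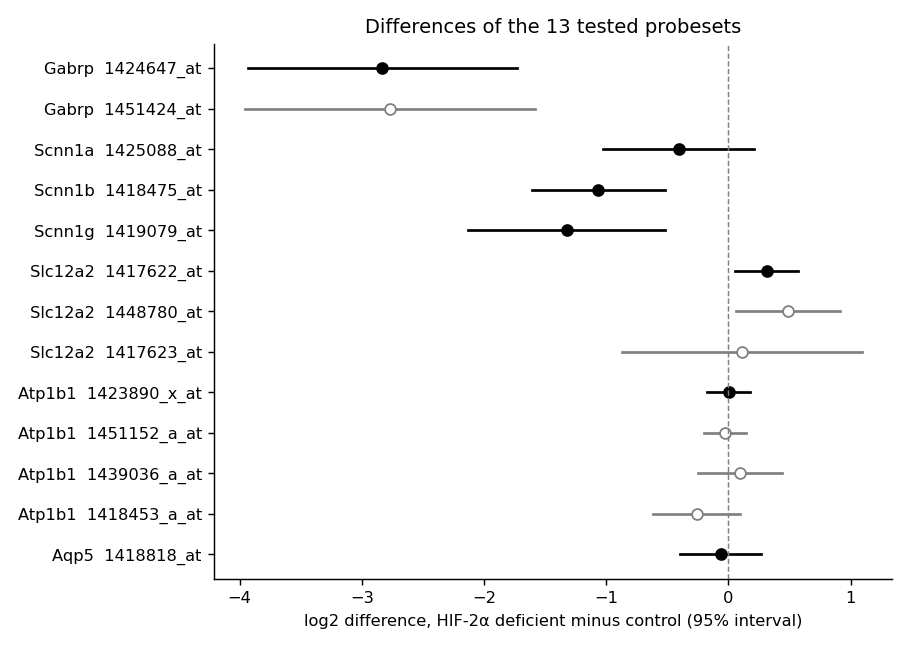
Log2 difference (x axis, HIF-2α deficient minus control) with its 95% interval for the 13 tested probesets of these genes, filled for the brightest probeset of a gene and open for the others. Both Gabrp probesets lie near -2.8, Scnn1b at -1.07 and Scnn1g at -1.32, while the intervals of Scnn1a, Aqp5 and the 4 Atp1b1 probesets include 0.

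Deficient arrays 1 and 5, which share a leading number, stood at 1 end of their group in several of these genes. They were the highest of their group for Gabrp (6.79 and 6.29), Cftr (6.37 and 4.43), Scnn1a (8.92 and 8.86), Scnn1b (7.41 and 7.10), Scnn1g (5.75 and 6.23) and Aqp4 (4.13 and 3.15). For Aqp5 they were the lowest (11.39 and 12.02). Deficient arrays 3 and 6, and arrays 4 and 7, also share leading numbers, and these pairs were apart in some genes. For Cftr arrays 3 and 6 read 2.155 and 2.161, and arrays 4 and 7 read 3.548 and 3.561. In Aqp5 the same pairs read 12.08 and 12.07 against 12.44 and 12.55, and they were apart in Scnn1b and Scnn1g too. They overlapped in Gabrp, Slc12a2, Atp1b1, Aqp4 and Scnn1a, where arrays 3 and 6 read 7.04 and 8.25, around arrays 4 and 7 at 8.03 and 7.54. When leading numbers entered the limma model as a random block, 0 probesets passed the adjusted threshold. The difference was then -2.74 for Gabrp, -1.03 for Scnn1b, -1.25 for Scnn1g and 0.30 for Slc12a2. What the leading numbers stand for is not given, and their part in these levels was not tested.

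RefSeq promoters, from 250 bases before to 50 after the start of each gene (build GRCm38.p6), were matched for 6 of the genes. Those of Gabrp, Scnn1b and Scnn1g are shown because these tested genes had the widest differences, and that of Aqp5 as a gene with little difference. Capitals mark the letters ACGTG or GCGTG, the core of the hypoxia response element to which HIF proteins bind, on either strand, with overlaps allowed.
Gabrp, chr11:33578908-33579207, minus strand: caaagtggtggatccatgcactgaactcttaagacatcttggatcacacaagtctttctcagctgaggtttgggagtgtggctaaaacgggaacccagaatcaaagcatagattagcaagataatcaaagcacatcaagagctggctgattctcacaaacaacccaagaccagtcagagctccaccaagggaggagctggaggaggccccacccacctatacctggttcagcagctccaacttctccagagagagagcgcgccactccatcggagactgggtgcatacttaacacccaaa
Scnn1b, chr7:121864788-121865087, plus strand: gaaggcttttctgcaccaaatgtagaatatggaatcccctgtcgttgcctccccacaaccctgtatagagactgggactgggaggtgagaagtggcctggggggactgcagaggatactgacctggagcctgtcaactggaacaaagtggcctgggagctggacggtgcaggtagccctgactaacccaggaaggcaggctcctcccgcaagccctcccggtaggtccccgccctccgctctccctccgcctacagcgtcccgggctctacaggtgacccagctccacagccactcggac
Scnn1g, chr7:121734229-121734528, plus strand: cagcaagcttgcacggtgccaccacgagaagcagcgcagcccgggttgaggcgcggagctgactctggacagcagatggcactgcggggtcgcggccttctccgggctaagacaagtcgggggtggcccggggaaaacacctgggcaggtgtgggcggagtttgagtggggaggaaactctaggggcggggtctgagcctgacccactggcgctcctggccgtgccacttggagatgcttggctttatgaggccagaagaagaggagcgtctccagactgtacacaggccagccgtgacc
Aqp5, chr15:99590778-99591077, plus strand: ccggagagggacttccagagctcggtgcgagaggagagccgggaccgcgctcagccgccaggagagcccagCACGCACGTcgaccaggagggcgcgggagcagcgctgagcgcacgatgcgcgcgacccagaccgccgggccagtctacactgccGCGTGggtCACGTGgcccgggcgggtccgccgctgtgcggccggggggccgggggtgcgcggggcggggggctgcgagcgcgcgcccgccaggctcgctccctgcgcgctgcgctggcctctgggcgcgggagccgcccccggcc

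The promoters of Gabrp, Scnn1b and Scnn1g held 0 matches to these letters in this window, and that of Aqp5 held 5, some of which overlap. Cftr held 2 and Atp1b1 held 1. Of all 32851 promoters of the same length, 43.8% held at least 1 match. The Aqp5 window was also the richest in G and C of the 6, at 79.7%, against 50.3% for Gabrp, 61.7% for Scnn1b and 64.7% for Scnn1g. The letters AGAACA, a half-site of the glucocorticoid and mineralocorticoid receptors that act on ENaC genes, were in 0 of the 6 windows and in 19.0% of all promoters. GTAAACA, a forkhead motif, and TATAAA were likewise in 0 of the 6, against 3.65% and 13.6% of all promoters. A match is a description of the letters and not a binding site.

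Within groups, several of these genes varied together. Levels were centred on their group mean, so the difference between groups does not enter, and all 36 pairs of the 9 genes were compared over 14 arrays. After adjustment over the 36 pairs, 6 passed in a two-sided permutation test (100000 permutations within groups), all 6 with a positive correlation. The share of pairs of other genes that would pass was not computed, so the count is not read as particular to these genes. The permutations treat arrays of a group as exchangeable, also those that share a leading number. Scnn1b and Scnn1g gave Pearson r = 0.90 and Spearman rho = 0.921 (permutation test, adjusted p = 0.0023 and 0.0013), with r = 0.856 in deficient and 0.954 in control arrays. Without the 2 arrays farthest from the median of Scnn1b, r was 0.817 (permutation adjusted p = 0.0423).

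Cftr went with the same genes. It gave r = 0.891 and rho = 0.925 with Scnn1b (permutation adjusted p = 0.0023 and 0.00036) and r = 0.822 and rho = 0.881 with Scnn1g (adjusted p = 0.0062 and 0.0014). Without the 2 arrays farthest from the Cftr median r was 0.82 and 0.858. Cftr lay under 4 in 8 of 14 arrays, so these correlations rest partly on values in the background range. Scnn1a gave r = 0.725 with Scnn1b and 0.751 with Scnn1g (permutation adjusted p = 0.034 and 0.0216, rho = 0.697 and 0.684). Without the 2 arrays farthest from the Scnn1a median these were 0.692 and 0.704, both with an adjusted p of 0.0512 in the permutation test, so they no longer passed. Gabrp and Aqp4 gave r = 0.708 and rho = 0.722 (permutation adjusted p = 0.034 and 0.0398), and 0.808 without the 2 arrays farthest from the Gabrp median. Aqp4 lay at background in deficient arrays other than 1 and 5, between 2.16 and 2.32, so within that group its order rests on these arrays of 1 leading number.

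Centred on the leading number in place of the group, 0 of the 36 pairs passed. There r was 0.84 for Scnn1b with Scnn1g, 0.767 for Cftr with Scnn1b, 0.543 for Cftr with Scnn1g and 0.66 for Gabrp with Aqp4 (permutation adjusted p = 0.157, 0.151, 0.395 and 0.322). For Scnn1a it was 0.863 with Scnn1b and 0.763 with Scnn1g, both above their group-centred values (permutation adjusted p = 0.13 and 0.156). Here arrays change places only within a leading number, and each leading number of the deficient group holds 1 or 2 arrays. Fewer permutations are then possible than within groups, so the test cannot show that the correlations are absent. Slc12a2, Atp1b1 and Aqp5 were in none of the 6 pairs. Aqp5 had a negative r with 7 of the other 8 genes, down to -0.63 with Gabrp (rho = -0.67, permutation adjusted p = 0.0512 and 0.0457).

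**Figure D3:**
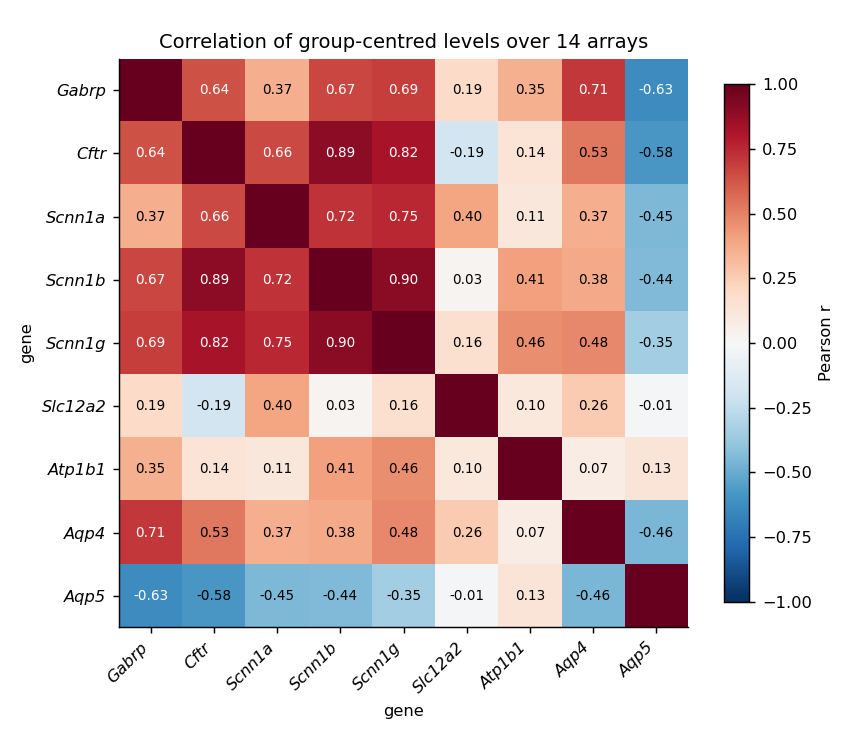
Pearson r of group-centred log2 levels over 14 arrays for every pair of the 9 genes, from blue (-1) to red (1). The 3 ENaC subunit genes and Cftr form a block of positive values, up to 0.90 for Scnn1b with Scnn1g, and the Aqp5 column is mostly negative.

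**Figure D4:**
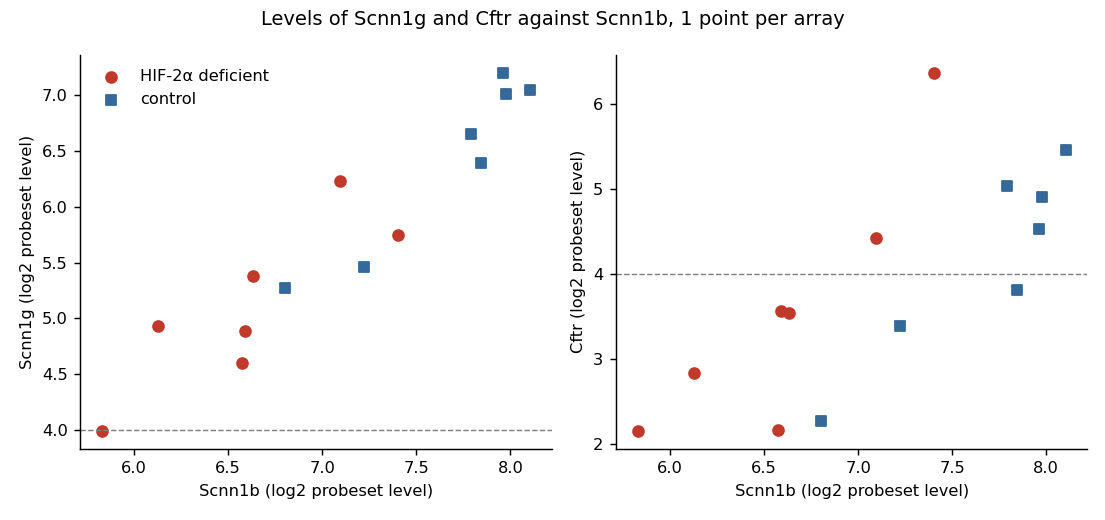
Log2 level of Scnn1g (left) and Cftr (right) against that of Scnn1b, with 1 point per array, HIF-2α deficient as circles and control as squares, and a dashed line at 4, the background limit. Arrays high in Scnn1b are high in Scnn1g in both groups, with r = 0.856 in deficient and 0.954 in control arrays.

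For each gene, the genes outside this set with the most similar group-centred pattern were looked up among all tested probesets with a single symbol. They were picked as the highest of many correlations over the same 14 arrays, and so are a description. Gabrp was most like 1700094D03Rik (r = 0.928) and the lipid phosphate phosphatase gene Plpp3 (0.905). Cftr was most like Mndal (0.955) and Ttc8, a BBSome subunit gene (0.952). Scnn1a was most like Serinc3 (0.945) and the calponin gene Cnn3 (0.94), and Scnn1b most like the lysophosphatidic acid receptor gene Lpar3 (0.95) and the latrophilin gene Adgrl1 (0.934). Scnn1g was most like Tm4sf1 (0.919) and the dNTPase gene Samhd1 (0.914).

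Aqp4 was most like Scgb3a1 (0.883), a secretoglobin of airway secretory cells, and Timp4 (0.832), an inhibitor of metalloproteases. These read 8.59 in deficient and 11.84 in control tumours for Scgb3a1, and 2.93 in deficient and 5.28 in control tumours for Timp4. In deficient tumours the means of Timp4 and of Aqp4 itself lie under the background limit. Both correlations of Aqp4 thus rest partly on values in the background range. Slc12a2 was most like Atxn2 (0.852) and the glycogen branching enzyme gene Gbe1 (0.848), Atp1b1 most like Wdr82 (0.91) and Serinc3 (0.893), and Aqp5 most like the ATP synthase subunit gene Atp5pb (0.938) and the parathymosin gene Ptms (0.932).

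The wider machinery of epithelial ion and water transport was read from lists of 129 other genes sorted by role. Of these 103 had a probeset of their own and 57 were tested. In limma, 0 of the 57 passed the adjusted threshold. At an unadjusted p under 0.05, 9 were lower and 3 higher in deficient tumours, or 21.1% in all, where 15.2% of all genes tested had such a p. When leading numbers entered as a random block (correlation 0.349), 1 of the 57 had such a p and 600 of all 12701 probesets did, against 1863 without the block. Of the 57, 41 had a difference below 0 (71.9%), against 49.6% of all genes, and their median difference was -0.16. With each array centred on its median 32 of 57 were below 0, against 37.5% of all genes. Without deficient arrays 3 and 6, left out in a check added once the values were known, 33 of 56 were, against 50.6% of all genes.

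Of 14 chloride and bicarbonate transport genes, 10 were below 0 and 4 above, with 9 below when arrays were centred on their medians. Clcn5, which encodes an endosomal chloride-proton exchanger, read 9.94 ± 0.27 in deficient and 9.36 ± 0.46 in control tumours (difference 0.58, SE 0.20, limma adjusted p = 0.210). Clic3, of the chloride intracellular channel family, read 11.24 ± 0.21 in deficient and 11.65 ± 0.29 in control tumours (-0.40, SE 0.14, adjusted p = 0.213). Clic1, the brightest of the list, differed by -0.01 (SE 0.19). Bsnd, the barttin gene of airway ionocytes and kidney, was at background throughout.

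All 6 tested genes of the sodium pump list were below 0. With arrays centred on their medians 4 were, and 5 after quantile normalisation, where Atp1b3 or Fxyd4 turned. At an unadjusted p under 0.05, 1 of the 6 was lower, where 7.73% of all genes tested were. The list includes the FXYD regulators of the pump, of which Fxyd5 differed by -0.53 (SE 0.21, limma adjusted p = 0.276) and Fxyd1, or phospholemman, by -1.11 (SE 0.59, adjusted p = 0.397). Fxyd1 ran from 4.00 to 8.74 in deficient and from 7.57 to 9.02 in control arrays. The alpha subunit genes of the pump were not analysed here.

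The 7 tested potassium channel genes, whose currents hold the voltage that drives chloride out, were also all below 0, with a median difference of -0.74. With arrays centred on their medians 6 were, since Kcnk1 turned. Kcnj15, an inward rectifier gene, read 4.08 ± 1.84 in deficient and 6.13 ± 0.94 in control tumours (-2.05, SE 0.71, limma adjusted p = 0.218). Kcne3, which encodes a partner of the KCNQ1 channel, read 3.86 ± 0.29 in deficient and 4.85 ± 1.27 in control tumours (-0.99, SE 0.45, adjusted p = 0.330). Kcnj15 lay above 4 in 3 of 7 deficient and 7 of 7 control arrays, and Kcne3 in 3 of 7 deficient and 5 of 7 control arrays. Both differences thus rest partly on values in the background range. Kcnk1, the brightest, differed by -0.02 (SE 0.17).

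Regulators of ENaC gave 12 of 17 below 0. At an unadjusted p under 0.05, 4 were lower and 0 higher, where 7.73% of all genes tested were lower and 7.45% higher. With leading numbers as a random block at most 1 of these 4 could keep such a p, since 1 of all 57 genes did. Of the 17, 9 were below 0 with arrays centred on their medians. Tsc22d3, the glucocorticoid-induced gene GILZ, read 8.45 ± 0.65 in deficient and 9.32 ± 0.54 in control tumours (-0.87, SE 0.30, limma adjusted p = 0.214), and its other tested probeset differed by -0.71. Usp2, which encodes a deubiquitinase, read 5.47 ± 1.75 in deficient and 7.54 ± 1.21 in control tumours (-2.07, SE 0.73, adjusted p = 0.223). The kinase gene Sgk1, an ENaC activator induced by corticosteroids and the brightest of the list, differed by -0.52 (SE 0.29, adjusted p = 0.422). Bpifa1, which encodes a secreted airway protein known to inhibit ENaC, was chosen after its values were seen for its wide spread. It read 6.15 ± 2.14 in deficient and 9.25 ± 3.48 in control tumours.

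Of 7 genes of cation-chloride cotransport 4 were below 0, against 2 with arrays centred on their medians. Stk39, the kinase gene SPAK that activates the SLC12A2 cotransporter, read 10.27 ± 0.82 in deficient and 9.21 ± 0.91 in control tumours (1.06, SE 0.42, limma adjusted p = 0.276), and its second probeset differed by 1.01. It stood on the same side as Slc12a2 itself. Slc12a4 differed by -0.23 (SE 0.16) and Wnk1, the brightest, by 0.00 (SE 0.13). Aqp1, the water channel gene of vessels and the sole other aquaporin gene tested, read 8.57 ± 1.12 in deficient and 9.36 ± 0.40 in control tumours (-0.79, SE 0.41, adjusted p = 0.395). In the GABA list Gabarapl1 differed by 0.39 (SE 0.20) and the GABA-B receptor gene Gabbr1 by 0.06 (SE 0.19). Among receptors and cyclases that start secretion, the nucleotide receptor gene P2ry6 differed by -0.80 (SE 0.33, adjusted p = 0.285), Adcy6 by 0.11 (SE 0.23) and Adcy3 by 0.10 (SE 0.24).

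**Figure D5:**
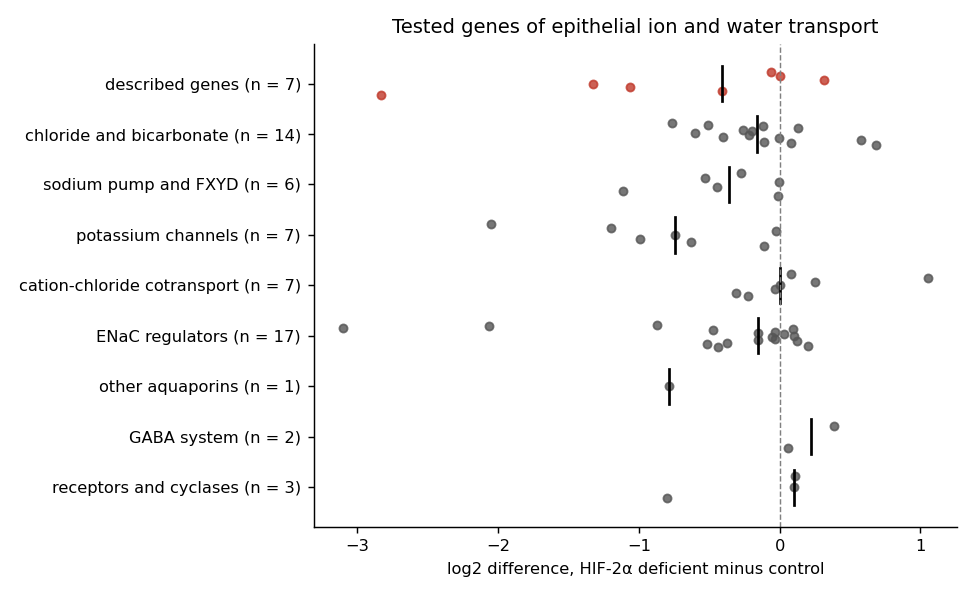
Log2 difference (x axis, HIF-2α deficient minus control) of each tested gene, by list, with the described genes in red on top, the other lists in grey and a black line at each list's median. The potassium channel and sodium pump lists lie wholly below 0 as deposited, with medians of -0.74 and -0.36, while with arrays centred on their medians 6 of 7 and 4 of 6 do.

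Markers of airway cells had lower mean levels in deficient tumours too. The 6 tested ciliated cell markers of 20 listed were all below 0, with a median difference of -2.28, and their mean level ran from 4.48 to 7.60 in deficient and from 6.20 to 9.66 in control arrays. Of the 6, Rsph1, Tekt1 and Mlf1 each lay above 4 in 2 of 7 deficient arrays and passed the filter mainly through controls. Their means in deficient tumours were 3.82, 3.17 and 3.81, so the median difference is partly set by the floor. Of 13 tested club and secretory markers of 19 listed 12 were below 0, and their mean level was 8.25 to 10.6 in deficient and 10.4 to 12.1 in control arrays. Of these Ltf lay above 4 in 2 of 7 deficient and 7 of 7 control arrays. At an unadjusted p under 0.05 in limma, 6 of 6 ciliated and 8 of 13 club markers were lower and 0 higher, where 7.73% of all genes tested were lower. The lists were chosen with earlier results known, so nothing is read from these counts. Tppp3, a bright ciliated marker, read 7.95 ± 1.37 in deficient and 10.27 ± 0.95 in control tumours, and Tubb4b read 10.11 ± 0.29 in deficient and 10.46 ± 0.31 in control tumours. Among bright club markers Scgb1a1 read 13.84 ± 0.26 in deficient and 13.78 ± 0.05 in control tumours, and Cbr2 read 12.27 ± 2.15 in deficient and 13.71 ± 0.17 in control tumours. Their part in the levels of Gabrp, Scnn1b, Scnn1g and Aqp4 was not tested.

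Of the type I alveolar markers 6 of 9 were below 0, with 2 lower at an unadjusted p under 0.05, Igfbp2 (-2.76, SE 0.81, limma adjusted p = 0.160) and Rtkn2 (5.91 in deficient and 7.41 in control tumours, adjusted p = 0.307), both named after their values were seen. Of all genes tested, 7.73% were lower and 7.45% higher at an unadjusted p under 0.05. The 9 tested type I markers of 12 listed had a mean level of 8.69 to 10.7 in deficient and 10.1 to 10.9 in control arrays, with Ager at 12.20 ± 0.34 in deficient and 12.30 ± 0.12 in control tumours. Cldn18 read 12.56 ± 0.29 in deficient and 12.49 ± 0.09 in control tumours. Of the 13 tested type II markers of 14 listed 4 were below 0 (8 after quantile normalisation, 2 with arrays centred on their medians), with 2 higher at an unadjusted p under 0.05. They averaged 12.0 to 12.7 in deficient and 12.3 to 12.6 in control arrays, with Sftpa1 at 13.94 ± 0.19 in deficient and 13.98 ± 0.11 in control tumours. Ionocytes, rare airway cells rich in CFTR, left little trace, since 1 of 8 listed markers was tested and the defining genes Foxi1 and Ascl3 were at background in all arrays. Of 8 basal and squamous markers 0 were tested. The smooth muscle list had 4 of 7 markers tested, with a mean level of 5.94 to 7.93 in deficient and 5.98 to 8.69 in control arrays. All 4 were below 0, also after quantile normalisation and with arrays centred on their medians. The 9 endothelial markers averaged 5.30 to 8.29 in deficient and 7.02 to 8.08 in control arrays, and all 9 were below 0 (8 with arrays centred on their medians). The 7 tested macrophage markers of 8 averaged 8.43 to 9.96 in deficient and 8.70 to 10.3 in control arrays, with 6 below 0. For 4 of 8 lymphocyte markers these ranges were 5.18 to 6.67 in deficient and 5.59 to 6.99 in control arrays, with 2 below 0. The 2 tested cardiac muscle markers of 7, whose cells surround pulmonary veins in mice, spread from 3.11 to 11.1 in deficient and from 3.31 to 6.94 in control arrays. Of these 2 markers, 1 was below 0.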

How the data were processed

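Tumour RNA, isolated with Trizol, was labelled with biotin and measured on Affymetrix mouse arrays, per the labels' protocols. The authors deposited 1 log2 level per probeset. GCRMA produced it, per the submitters' processing notes (version not given in the sources used here). Nothing was renormalised. Differences come from limma 3.58.1, run in R 4.3.3 (lmFit, eBayes, 1 group term, deficient minus control, two-sided, Benjamini-Hochberg over 12701 tested probesets). The table held 64 control probesets, which were left out. A gene was represented by its probeset of highest mean. The median SE of a log2 difference was 0.18, and the number of arrays limits the precision. On simulated data with 12701 probesets, 93 of 100 changes of 1.5 and 99 of 100 of 3 log2 units were recovered, with 8 false calls. The simulated arrays were independent and the changed probesets were picked at random. Arrays with one leading number had an estimated correlation of 0.349, so the simulation checks the code and does not give the recovery in these data. Correlations and figures used Python 3.11.15 with numpy 2.4.6 and matplotlib 3.10.9.

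The genes described, the lists and the tests were chosen with earlier results of these data known. The named genes were chosen by rule, as all 9 genes described, of each transport list the 2 genes of smallest p and the brightest gene, for each described gene the 2 most alike genes, and of the club, ciliated and alveolar marker lists the 2 brightest. Bpifa1, Bsnd, Foxi1, Ascl3, Igfbp2, Rtkn2, Atp1b3, Fxyd4, Rsph1, Tekt1, Mlf1 and Ltf fall outside it and were named after their values were seen. Alternatives covered the filter, normalisation, variance model, array weights, leading numbers, replicate numbers, the probeset of a gene and each array left out in turn.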

Additional observations from a re-analysis of the deposited data

Results flagged for a closer look

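Among 30 groups of 7 values, 1 array lay far from the rest of its group by Dixon's criterion, where chance alone gives about 1 in 20 groups. It was deficient array 1 in the Slc12a2 probeset 1417623_at, which read 6.46 where the next lowest deficient array read 9.31. The gap was 0.775 of the range of the group, above the critical value of 0.568. In the brighter Slc12a2 probesets the same array read 12.17 and 9.35, and 9.35 was the lowest of the deficient group.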

How the results depend on the processing

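The number of described genes with a lower mean in deficient tumours, 7 of 9, was 6 to 8 in the 25 alternatives, and the sign changed for Atp1b1 and Aqp5 alone. Differences ran from -3.28 to -2.56 for Gabrp, from -1.34 to -0.90 for Scnn1b, from -1.60 to -0.999 for Scnn1g and from 0.25 to 0.42 for Slc12a2. For Scnn1a they ran from -0.55 to -0.19 and for Cftr from -1.54 to -0.05, the last without deficient arrays 3 and 6. Aqp4 differed by -1.82 with all its probesets averaged, a mean that includes the probeset at background.

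The count of 5 probesets in the whole table was 0 with no filter, 9 with a trended and robust variance and 1900 with array weights, which ran from 0.277 to 4.15. It was 0 when leading numbers were a random block and 0 when arrays were averaged over them, and 1 of 57 other transport genes then had an unadjusted p under 0.05 in both, against 12. Leaving out 1 array gave 0 to 85, with 85 reached without control array 4, and leaving out deficient arrays 3 and 6, a choice made once the data had been seen, gave 31. With the replicate number as a block it was 2, and 0 of the described genes passed. Same-numbered arrays did not deviate together (r = -0.23 to 0.22 over 7 pairs), so the numbers were not taken as pairs. With array weights 4 of the described genes (Gabrp, Scnn1b, Scnn1g and Slc12a2) and 13 other transport genes passed, and 0 of the transport genes passed in any other alternative. Of the described genes, Gabrp passed without deficient array 1, and Gabrp and Scnn1b passed without control array 4. The 6 correlated pairs became 0 when centred on the leading number, where fewer permutations are possible. The count was 11 by Spearman's rho and 4 without the 2 farthest arrays. The causes were not tested.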
